A study of Rattus norvegicus with 6 samples.

Results

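Interferon response and antigen presentation genes are described here across 6 RNA sequencing libraries of NRVM, which are myocytes taken from the ventricles of newborn rats and kept in culture. The members are 42 gene symbols given as a list that was chosen with earlier results of these data known. Every row of the deposited table that carries one of the symbols was kept, whatever its values. Of the 42, 35 had a row, out of 13556 distinct symbols, and Ifit3 had 2 rows, which gives 36 rows. Irf9, Isg20, Herc6, Gbp4, Ifi44l, Xaf1 and Nlrc5 were not analysed here. The rows of Zbp1 and Tap2 averaged under 1 FPKM over the 6 libraries and were not tested, which leaves 34 member rows tested among 10359 features.

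The libraries form 3 groups of 2, and every culture in them was exposed for 3 days to phenylephrine (PE), an alpha-1 adrenergic agonist used to make cultured cardiomyocytes grow. The PE group had a control short hairpin RNA. The PE+TSA group had TSA and the control hairpin, and the PE+TSA+shJIP1 group had TSA and a hairpin against JIP1. TSA is not expanded in the labels; it is the usual short form of trichostatin A, a histone deacetylase inhibitor. The labels call the third group a knockout in the genotype field and describe a hairpin in the treatment text. They do not say how the hairpins were delivered, whether a vector without hairpin or an untreated culture was made, or whether libraries of the same group are separate cultures. P-values therefore measure only the spread between these libraries, which may be technical.

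Interferons are secreted cytokines that bind cell surface receptors and, through JAK kinases and STAT factors, switch on a large set of genes. Type I interferon signalling activates a complex of transcription factors that binds the interferon-stimulated response element (ISRE) in promoters. The products include sensors of viral RNA, enzymes that degrade or modify RNA, the ubiquitin-like protein ISG15 and the machinery that loads peptides on MHC class I molecules. Cardiomyocytes, like most cell types, carry interferon receptors and can mount this response.

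The letters of the ISRE are shown because they mark the promoters of many, though not all, of the members. RefSeq promoters of the assembly GRCr8 were found for 27 of the 35 members, and the 250 bases before each annotated start were searched on both strands for the core of the ISRE, which is GAAA, any 2 bases and GAAA. It stood in 16 of the 27 (59.3%), against 3.29% of all 27457 promoters. Those 16 were Ifih1, Eif2ak2, Irf7, Ifit3, Oas1a, Rsad2, Bst2, Parp14, Gbp2, Gbp5, Irgm, Ifi44, Ifi27, Tap1, Tap2 and B2m. A second motif, the gamma-activated site that STAT dimers bind, is TTC, any 3 bases and GAA and reads the same on both strands. It stood in 6 of the 27 (22.2%; Irf1, Oas1a, Bst2, Parp14, Irgm and Ifi47), against 7.52% of all promoters, and in Bst2 it overlaps the ISRE core. Ddx58, Dhx58, Zbp1, Ifit1, Ifit2, Mx2, Isg15 and Usp18 were not matched to a promoter here. For 7 members, the 100 bases that end just before the annotated start are printed 5′ to 3′ in the direction of transcription, with the core in capitals. GAAA stretches mark a core on the gene's own strand and TTTC stretches one on the opposite strand. Oas1a holds 2 cores that overlap. A match of letters is a description and does not show that a factor binds there.

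Irf7 (GRCr8, chr1:205800024-205800123, minus strand): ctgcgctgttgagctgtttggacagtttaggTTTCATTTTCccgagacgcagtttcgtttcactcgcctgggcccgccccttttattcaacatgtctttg
Ifit3 (GRCr8, chr1:241527226-241527325, plus strand): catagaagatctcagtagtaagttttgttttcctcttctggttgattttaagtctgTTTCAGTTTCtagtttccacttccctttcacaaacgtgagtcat
Oas1a (GRCr8, chr12:41330366-41330465, plus strand): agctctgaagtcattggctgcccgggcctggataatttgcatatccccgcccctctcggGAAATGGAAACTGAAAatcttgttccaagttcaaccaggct
Gbp2 (GRCr8, chr2:234005627-234005726, plus strand): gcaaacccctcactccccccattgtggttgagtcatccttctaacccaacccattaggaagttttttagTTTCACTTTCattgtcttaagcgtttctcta
Gbp5 (GRCr8, chr2:233910899-233910998, plus strand): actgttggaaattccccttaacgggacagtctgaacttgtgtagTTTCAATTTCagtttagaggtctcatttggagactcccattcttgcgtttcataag
Irgm (GRCr8, chr10:33742579-33742678, minus strand): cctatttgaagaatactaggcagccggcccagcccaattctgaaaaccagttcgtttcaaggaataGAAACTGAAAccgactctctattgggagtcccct
Ifi44 (GRCr8, chr2:243303841-243303940, minus strand): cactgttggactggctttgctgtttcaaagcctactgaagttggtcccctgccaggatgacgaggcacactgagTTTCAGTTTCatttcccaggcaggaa

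The table gives FPKM, a read density per transcript length and per library size, so levels can be compared between genes. Low values lie at whole-read steps, from which PE replicate 2 had 0.048 of the depth of PE replicate 1 (20.8 times shallower), while the other 4 libraries had 0.722 to 1.34 of it. PE replicate 2 listed 3667 features at 0, the others 1407 to 1837. The hairpin's target Mapk8ip1 was at 3.77 and 4.39 FPKM under PE, 14.6 and 17.9 under PE+TSA and 1.80 and 3.65 under PE+TSA+shJIP1. All 11 cardiomyocyte markers that had a row were detected in every library, with troponin T, Tnnt2, at 1835 to 7215 FPKM. Log2 values below are log2(FPKM + 1), a scale that understates the change of low genes, and adjusted p-values are from limma with Benjamini-Hochberg adjustment over the 10359 features.

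Most members were expressed at a clear level in both PE libraries, and PE+TSA replicate 1 stayed close to them, whereas PE+TSA replicate 2 was far lower. Of the 34 rows tested, 29 had their lowest value in PE+TSA replicate 2, which held the lowest value of 12% of all features. Relative to the mean of the PE libraries, 28 of 34 were lower by more than 1 on the log2 scale in PE+TSA replicate 2 (7.68% of all features) and 2 under PE+TSA replicate 1 (5% of all features). The corresponding counts were 6 under PE+TSA+shJIP1 replicate 1 (10% of all features) and 22 under PE+TSA+shJIP1 replicate 2 (12.1%). The median distance from PE was -0.04 and -2.39 for the PE+TSA pair and -0.61 and -1.29 for the PE+TSA+shJIP1 pair, where over all features it was 0.09 to 0.11. Even in PE+TSA replicate 1, 17 of 34 members lay below both PE libraries, where 3144 of 10359 features did. A single order, rising from PE+TSA replicate 2 through PE+TSA+shJIP1 replicate 2 and PE+TSA+shJIP1 replicate 1 to PE+TSA replicate 1, held for 27 of the 34 members and for 3.37% of all features. The heat map of members relative to PE shows these columns.

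**Figure D1:**
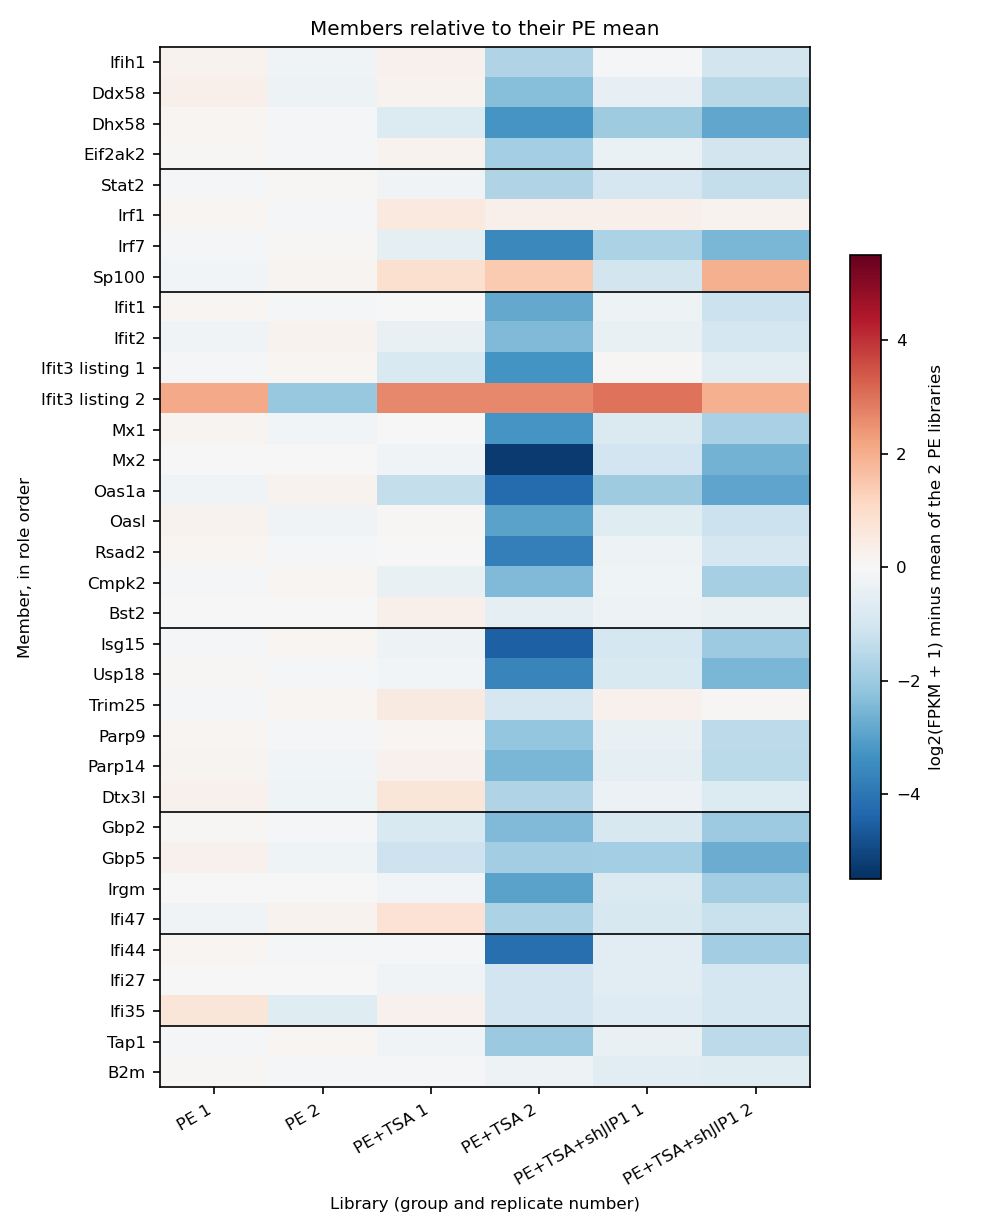
Heat map of the 34 tested member rows (vertical, grouped by role between black lines) in the 6 libraries (horizontal). Colour is log2(FPKM + 1) minus the mean of the 2 PE libraries. The column of PE+TSA replicate 2 is the lowest for 29 rows, and the other 5 are Irf1, Sp100, the second listing of Ifit3, Gbp5 and B2m.

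The sensors of foreign RNA were at moderate levels. Ddx58 encodes RIG-I, which senses short double-stranded RNA with a triphosphate end. It was at 85.3 and 57.5 FPKM under PE, 79.0 and 12.9 under PE+TSA, and 51.4 and 23.3 under PE+TSA+shJIP1. The groups PE and PE+TSA therefore overlapped, since PE+TSA replicate 1 lay between the PE libraries. Ifih1, which encodes MDA5, a sensor of long double-stranded RNA, was at 29.6 and 22.7, then 30.4 and 7.49, then 24.8 and 12.4 FPKM in the same order of groups. Eif2ak2, the RNA-activated kinase PKR that stops translation, was at 55.4 and 50.1, 61.1 and 13.9, and 41.1 and 25.7 FPKM. For both genes PE+TSA replicate 1 was the highest library of all and PE+TSA replicate 2 the lowest. Dhx58, the regulatory helicase LGP2, had all 4 TSA libraries below PE, with 18.1 and 15.3 FPKM under PE, 9.47 and 0.862 under PE+TSA and 3.61 and 1.46 under PE+TSA+shJIP1. Its adjusted p was 0.252 for TSA and 0.106 for both treatments against PE. Zbp1, a sensor of Z-form nucleic acid, was under 1.2 FPKM in every library.

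Among the transcription factors, Irf7 and Stat2 were lower with TSA in value while Irf1 and Sp100 were not. Irf7, the factor that amplifies type I interferon production, was at 65.5 and 72.8 FPKM under PE, 47.7 and 4.99 under PE+TSA, and 19.7 and 11.2 under PE+TSA+shJIP1. Stat2, the STAT particular to type I and III interferon signalling, was at 38.0 and 41.6, then 34.3 and 12.04, then 20.4 and 15.2. All 4 TSA libraries lay below both PE libraries for these 2 genes, and the distance within PE+TSA was 9.56-fold for Irf7 and 2.85-fold for Stat2. Irf1, an early factor of the interferon-gamma response, was at 12.8 and 10.8 FPKM under PE, 17.4 and 14.4 under PE+TSA and 14.6 and 13.8 under PE+TSA+shJIP1, so that every TSA library was above PE (adjusted p = 0.395 for TSA). Sp100, a component of nuclear bodies that interferon induces, was at 49.5 and 60.3, then 103 and 150.5, then 26.4 and 215. It was the only tested member that was higher in replicate 2 than in replicate 1 of both TSA groups, and the PE+TSA+shJIP1 libraries stood on either side of all others. Its log2 change was 1.17 ± 0.88 (SE, limma adjusted p = 0.497) with TSA, -0.70 ± 0.88 (adjusted p = 0.765) with the hairpin and 0.47 ± 0.88 (adjusted p = 0.750) with both.

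The direct antiviral effectors held the largest differences between the PE+TSA libraries. Mx2, a dynamin-like GTPase, was at 159 and 160.2 FPKM under PE, 138 and 3.13 under PE+TSA, and 75.9 and 25.5 under PE+TSA+shJIP1. The ratio of replicate 1 to replicate 2 was 0.990 for PE and 44.1 for PE+TSA. Its paralog Mx1 was at 10.3 and 8.36, then 9.10 and 0.0840, then 4.96 and 2.02. Rsad2, the radical enzyme viperin that makes a chain-terminating nucleotide, was at 35.2 and 30.5, then 32.6 and 1.496, then 27.1 and 16.9. Its genomic partner Cmpk2, a nucleotide kinase, was at 7.29 and 8.59, then 5.64 and 0.639, then 6.47 and 1.52. In these 4 genes PE+TSA replicate 2 was the lowest library and PE+TSA replicate 1 was within or under the PE values.

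The oligoadenylate synthetases, which make the signal for RNase L, followed the same order. Oas1a was at 15.3 and 20.9 FPKM under PE, 6.61 and 0 under PE+TSA and 3.84 and 1.52 under PE+TSA+shJIP1, so both TSA groups lay wholly below PE. Its log2 change was -2.78 ± 0.92 (SE, limma adjusted p = 0.193) with TSA, 0.34 ± 0.92 (adjusted p = 0.901) with the hairpin and -2.44 ± 0.92 (adjusted p = 0.137) with both. Oasl, which encodes a related protein, was at 80.4 and 60.1, then 71.9 and 8.15, then 43.4 and 30.01. The level of Oasl in PE+TSA replicate 1 was between the PE libraries, so those groups overlapped.

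The Ifit genes encode proteins that bind foreign RNA ends. Ifit1 was at 45.8 and 40.0 FPKM under PE, 42.4 and 5.25 under PE+TSA and 35.1 and 18.3 under PE+TSA+shJIP1, and Ifit2 at 19.9 and 25.6, then 16.9 and 3.36, then 16.8 and 11.2. The first listing of Ifit3 was at 19.7 and 23.0, then 11.4 and 1.27, then 22.5 and 14.0, and was the only member whose hairpin libraries were both above both PE+TSA libraries. Its log2 change was -2.07 ± 0.75 (SE, adjusted p = 0.220) with TSA, 1.82 ± 0.75 (adjusted p = 0.335) with the hairpin and -0.25 ± 0.75 (adjusted p = 0.848) with both. The second listing of Ifit3 went another way: it was at 17.4 under PE replicate 1, 0 in the shallow PE replicate 2, 25.9 and 25.7 under PE+TSA and 32.8 and 15.6 under PE+TSA+shJIP1. Reads shared between these rows, or between members of the Ifit, Oas and Mx families, cannot be told apart here. Bst2, the tether tetherin that holds budding virions, varied less, at 104 and 107 FPKM under PE, 129 and 73.1 under PE+TSA and 87.3 and 78.8 under PE+TSA+shJIP1 (log2 change -0.12 ± 0.29, adjusted p = 0.847, with TSA).

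In the ISG15 and ubiquitin system, Isg15 and Usp18 showed the widest spread within PE+TSA. Isg15, a ubiquitin-like protein that is attached to other proteins, was at 221 and 255 FPKM under PE, 194 and 9.65 under PE+TSA and 119 and 58.8 under PE+TSA+shJIP1. All 4 TSA libraries were below both PE libraries, yet the PE+TSA libraries differed 20.1-fold from each other and the hairpin libraries 2.03-fold. The log2 change of Isg15 was -2.39 ± 1.23 (SE, adjusted p = 0.354) with TSA, 0.90 ± 1.23 (adjusted p = 0.793) with the hairpin and -1.49 ± 1.23 (adjusted p = 0.447) with both. Usp18, which removes ISG15 and restrains the interferon receptor, was at 75.7 and 70.1, then 64.9 and 4.92, then 39.9 and 11.8. Parp9 and Dtx3l, which form a complex that modifies histones and interferon signalling, had PE+TSA replicate 1 above or level with PE: 52.8 and 46.2, then 53.0 and 10.7, then 36.5 and 17.6 FPKM for Parp9. Dtx3l was at 9.91 and 6.99, then 13.7 and 1.98, then 6.50 and 4.54. Parp14, an ADP-ribosyltransferase, was at 18.7 and 14.7, then 19.9 and 2.10, then 11.1 and 5.30 FPKM. Trim25, the ubiquitin ligase that activates RIG-I, was at 58.6 and 67.2, then 88.7 and 32.4, then 73.6 and 66.4, and its hairpin libraries were level with or above PE.

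The interferon-inducible GTPases, which act on membranes of intracellular pathogens, included the 1 member that passed a test. Gbp5, which also promotes inflammasome assembly, was at 19.97 and 14.4 FPKM under PE, 7.1999 and 3.79 under PE+TSA and 3.94 and 1.69 under PE+TSA+shJIP1. The 4 TSA libraries lay below both PE libraries, and the libraries of each group differed by 1.39-, 1.90- and 2.33-fold. Its log2 change was -1.52 ± 0.43 (SE, adjusted p = 0.158) with TSA, -0.78 ± 0.43 (adjusted p = 0.469) with the hairpin and -2.30 ± 0.43 (adjusted p = 0.0330) with both. That last value was past the threshold of 0.05, and it was no longer so when any 1 of the 6 libraries was left out (adjusted p 0.0712 to 0.189), with no filter (0.0545) or with only the 2 groups compared in the fit (0.0710). Gbp2 was at 32.4 and 29.5, then 16.7 and 4.90, then 16.2 and 7.10 FPKM, with all TSA libraries below PE. Irgm, an immunity-related GTPase, was at 30.9 and 30.4, then 27.6 and 3.17, then 17.5 and 7.52 (log2 change -1.54 ± 0.87, adjusted p = 0.389, with TSA). Ifi47 was low throughout, at 3.88 and 5.24, then 8.54 and 0.648, then 1.95 and 1.33.

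Of the other interferon-induced genes, Ifi44 was at 76.8 and 65.6 FPKM under PE, 65.1 and 3.05 under PE+TSA and 46.1 and 18.3 under PE+TSA+shJIP1, a 21.3-fold distance within PE+TSA. Ifi27, a small mitochondrial protein, was the most abundant member, at 728 and 753, then 644 and 354, then 488 and 379. All TSA libraries were below PE for Ifi27, with a log2 change of -0.63 ± 0.33 (SE, adjusted p = 0.358) with TSA and -0.78 ± 0.33 (adjusted p = 0.168) with both. Ifi35 was at 11.8 and 4.03, then 8.53 and 2.89, then 3.86 and 3.09.

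Antigen presentation was split between an abundant gene with close values within each group and one that varied within groups. B2m, the invariant light chain of MHC class I, was at 457 and 422 FPKM under PE, 421 and 359.6 under PE+TSA and 287 and 280.3 under PE+TSA+shJIP1. Both hairpin libraries were below all 4 others, and B2m was the only tested member for which the hairpin group lay wholly below PE+TSA. The log2 change was -0.17 ± 0.20 (SE, adjusted p = 0.658) with TSA, -0.45 ± 0.20 (adjusted p = 0.366) with the hairpin and -0.63 ± 0.20 (adjusted p = 0.0965) with both, so none passed. Tap1, a subunit of the peptide transporter, was at 17.2 and 19.8, then 16.0 and 3.70, then 13.8 and 6.24. Tap2, the other subunit, was listed at 0.0757 under PE replicate 1 and at 0 in the other 5 libraries, although the transporter needs both subunits.

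**Figure D2:**
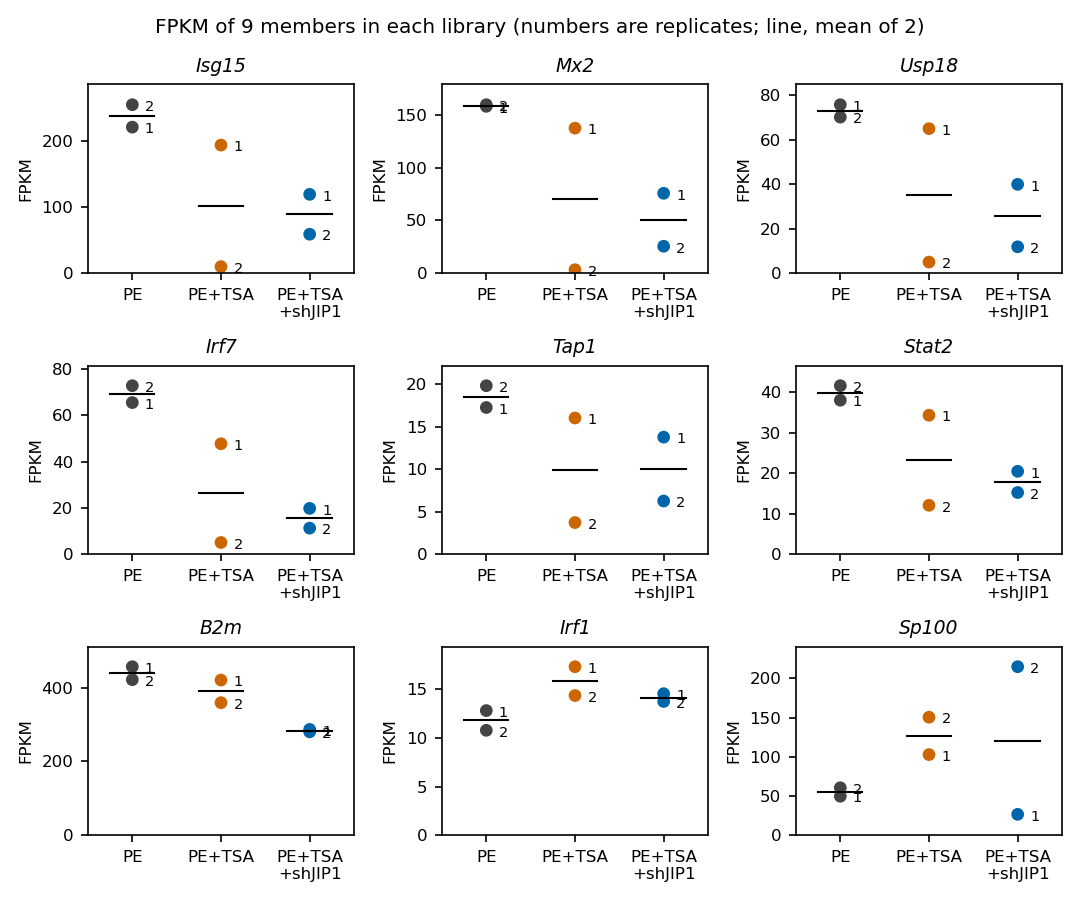
FPKM (vertical, linear from 0) of 9 members in the 3 groups (horizontal); each point is a library with its replicate number and the line is the mean of 2. Isg15, Mx2, Usp18, Irf7, Tap1 and Stat2 have PE+TSA replicate 1 near PE and replicate 2 lowest, while B2m, Irf1 and Sp100 do not follow this.

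The size of the difference within a group was set beside the differences between groups. Between the PE libraries, replicate 1 exceeded replicate 2 by more than 1 on the log2 scale in 2 of 34 members (10.8% of all features), which were Ifi35 and the second listing of Ifit3. Between the PE+TSA libraries this held for 27 of 34 (3.76% of all features), of which 21 exceeded 2 and 7 exceeded 3. Between the PE+TSA+shJIP1 libraries it held for 11 of 34 (3.84% of all features). The median difference of the members was 0.12, 2.25 and 0.89 in the 3 groups, against 0.16, 0.00 and 0.01 over all features. In both TSA groups 33 of 34 members were higher in replicate 1, with Sp100 the exception each time, where over all features 5180 and 5243 of 10359 were. Across the 34 members the replicate differences of the PE+TSA and the PE+TSA+shJIP1 groups correlated with Pearson's r = 0.61 and Spearman's rho = 0.52, against 0.12 and 0.29 across all features. The points share the same 4 libraries, and replicate numbers are only names.

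**Figure D3:**
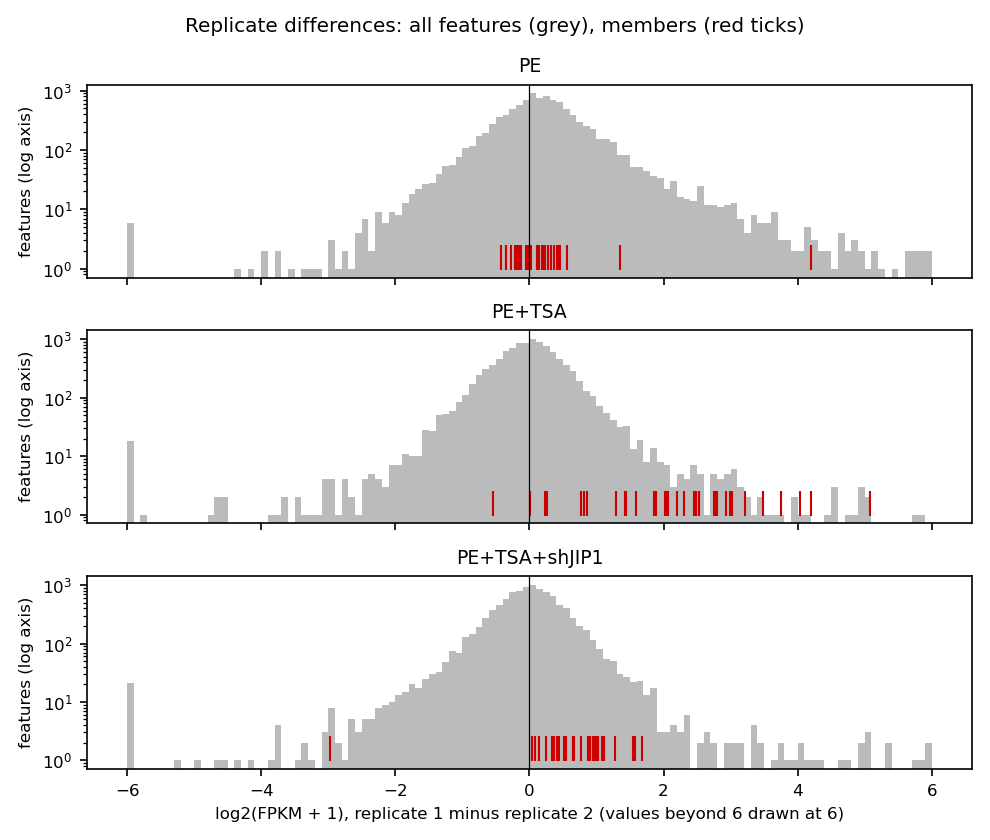
Replicate 1 minus replicate 2 on the log2(FPKM + 1) scale (horizontal) in PE, PE+TSA and PE+TSA+shJIP1; grey bars count all 10359 features on a log axis and red ticks are the 34 members. The ticks centre on 0.12 in PE, spread to 5.07 under PE+TSA and sit mostly between 0 and 1.68 under PE+TSA+shJIP1, with Sp100 at -2.98.

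The TSA comparison asks what the inhibitor changes in PE-treated myocytes. Of the 34 members 31 were lower and 3 higher in mean, with a median log2 change of -1.27, against 0.10 over all features, and none passed the threshold in limma (0.811% of all features did). At an unadjusted p under 0.05 there were 5 of 34, where 18.7% of all features were (7.1% lower and 11.6% higher). These 5, Dhx58, the first listing of Ifit3, Oas1a, Gbp2 and Gbp5, were all lower. The groups did not overlap, with PE+TSA lower, for 17 of 34 members (21.1% of all features), and with PE+TSA higher for 3, Irf1, Sp100 and the second listing of Ifit3 (29.5% of all features). The result depended on which PE+TSA library was used. Without PE+TSA replicate 2 the median change was -0.04 and 20 of 34 members were lower. Without PE+TSA replicate 1 it was -2.39 and 31 were lower. Without PE replicate 1, which leaves the shallow library alone for PE and assumes that it varies like the other groups, the second listing of Ifit3 passed as higher (adjusted p = 0.0285). For Ddx58, with a log2 change of -1.09 ± 0.81 (SE, limma adjusted p = 0.497), and for Bst2 the direction was opposite without PE+TSA replicate 2 (0.17 and 0.28).

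The hairpin comparison asks what loss of JIP1 changes when PE and TSA are present. No member passed in limma (0.29% of all features did), and 1, the first listing of Ifit3, had an unadjusted p under 0.05, where 14.9% of all features had (5.93% higher and 8.94% lower). In mean, 21 were higher and 13 lower, with a median log2 change of 0.16. The hairpin group lay wholly above PE+TSA for 1 of 34 members (24.9% of all features) and wholly below it for 1 (25.1%), the first listing of Ifit3 and B2m. For 31 of the 34 members PE+TSA replicate 1 was above PE+TSA+shJIP1 replicate 1, and for 30 PE+TSA replicate 2 was below PE+TSA+shJIP1 replicate 2. The direction accordingly turned with the library left out: the median was -0.95 with 33 of 34 lower without PE+TSA replicate 2, and 1.17 with 29 of 34 higher without PE+TSA replicate 1. It was -0.30 without PE+TSA+shJIP1 replicate 1 and 0.62 without PE+TSA+shJIP1 replicate 2.

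Against PE alone, the group with TSA and the JIP1 hairpin was lower for 30 of 34 members, with a median log2 change of -0.93, against 0.10 over all features. The groups did not overlap, with PE+TSA+shJIP1 lower, for 28 of 34 members (26.7% of all features), and PE+TSA+shJIP1 was wholly higher for 1, Irf1 (33.9% of all features). In limma 1 member passed, Gbp5, where 8.27% of all features did. At an unadjusted p under 0.05 there were 6 of 34, all lower, where 30.7% of all features were (13.6% lower and 17.1% higher). The median was -1.29 without PE+TSA+shJIP1 replicate 1 and -0.61 without PE+TSA+shJIP1 replicate 2, and 30 of 34 were lower in each case. This comparison and the TSA comparison share the PE libraries.

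Other genes of the pathway were read from lists written for this description. Upstream of the response, 16 rows of interferon ligands, receptors, kinases and their regulators were tested, and none passed in any comparison. Their median log2 change with TSA was -0.04, and the median replicate difference in PE+TSA was -0.27, of the opposite sign to that of the members. Ifnb1, the interferon beta gene, was at 0.959 FPKM under PE replicate 1, 0.666 under PE+TSA+shJIP1 replicate 2 and 0 in the other 4 libraries. The receptor gene Ifnar1 was at 9.45 and 9.46 FPKM under PE, 11.4 and 17.9 under PE+TSA and 15.02 and 24.6 under PE+TSA+shJIP1, and the kinase gene Jak1 at 51.0 and 45.0, then 45.5 and 49.1, then 64.4 and 56.0. Ifnar1 and Jak1 were higher in PE+TSA replicate 2 than in replicate 1, while 5 of the 16 rows of this list were higher in replicate 1.

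Adaptors, kinases and factors of viral sensing numbered 18 tested rows, and none passed in any comparison. Their median log2 change with TSA was 0.09 and their median replicate difference in PE+TSA was -0.20. Tlr3, a receptor for double-stranded RNA in endosomes, and Trex1, an exonuclease that clears cytosolic DNA, were the rows with the widest PE+TSA differences. Tlr3 was at 3.12 and 1.1003 FPKM under PE, 3.29 and 1.18 under PE+TSA and 2.34 and 2.57 under PE+TSA+shJIP1. Trex1 was at 44.2 and 38.2, then 44.1 and 22.2, then 35.9 and 21.1.

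A further 43 rows of other interferon-stimulated genes were tested, and 35 were lower with TSA, with a median of -0.69 and none past the threshold. In PE+TSA, 20 of the 43 were higher in replicate 1 by more than 1 on the log2 scale (3.76% of all features) and the median difference was 0.93. The 4 rows named next were chosen for the widest of these differences. Oasl2 was at 23.8 and 31.2 FPKM under PE, 22.5 and 0.538 under PE+TSA and 16.8 and 9.13 under PE+TSA+shJIP1. The chemokine Cxcl10 was at 268 and 267, then 222 and 26.5, then 81.9 and 61.3. Oas1b measured 42.8 and 50.7 FPKM under PE and 48.2 and 4.199 under PE+TSA. The GTPase gene Igtp measured 11.6 and 10.1 under PE and 17.1 and 1.06 under PE+TSA. PE+TSA replicate 1 was thus between the PE libraries for Oas1b, below both for Oasl2 and Cxcl10 and above both for Igtp. With both treatments 1 of the 43 passed the test (8.27% of all features did) and fell, Ifi27l2b, from 166 and 269 FPKM in PE to 49.4 and 32.2 (log2 change -2.38 ± 0.47, limma adjusted p = 0.0362).

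Of 29 other rows for antigen processing, none passed with TSA or with the hairpin, and 3 passed with both against PE, a share near the 8.27% of all features. Erap1, the aminopeptidase that trims peptides, fell from 16.1 and 13.5 FPKM to 5.35 and 3.23 (adjusted p = 0.0395, limma), and Tapbpl, a peptide editor, fell from 6.70 and 5.20 to 0.886 and 1.25 (adjusted p = 0.0396). Mr1, which presents vitamin metabolites, rose from 0.605 and 0 to 5.29 and 4.77 (adjusted p = 0.0277). Psmb8, a subunit of the immunoproteasome, was at 7.25 and 7.94, then 8.69 and 2.62, then 4.23 and 2.26. RT1-T24-3, RT1-S3 and the second listing of RT1-T24-4 were the MHC class I rows with the widest PE+TSA differences. RT1-T24-3 measured 6.76 and 0.353 FPKM in the PE+TSA libraries, and the near-identical copies of this family make its counts uncertain. The median replicate difference of the 29 rows in PE+TSA was 0.53.

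**Figure D4:**
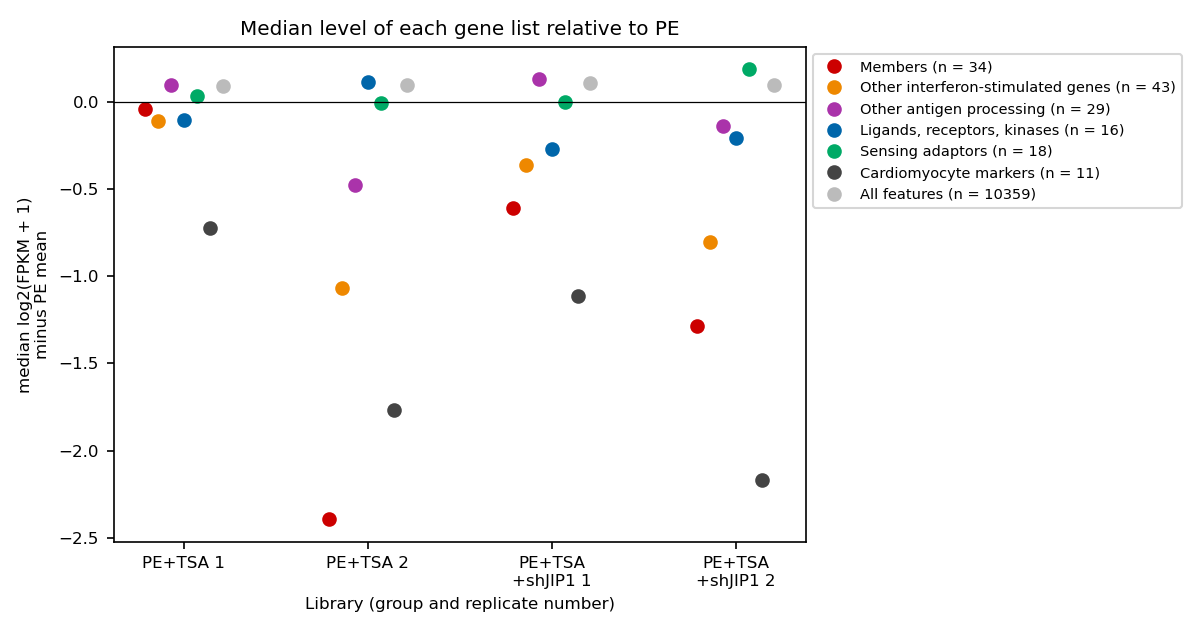
Median of log2(FPKM + 1) minus the PE mean (vertical) in the 4 TSA libraries (horizontal) for the members, 4 other pathway lists, cardiomyocyte markers and all features. The members sit at -0.04 and -2.39 under PE+TSA and the ligand and sensing lists lie between -0.27 and 0.19 in the 4 libraries.

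Other genes moved in the same libraries, and their part in the result was not tested. The 11 cardiomyocyte markers had a median replicate difference of 0.32 in PE, 1.04 under PE+TSA and 1.05 under PE+TSA+shJIP1, all 11 being higher in replicate 1 of both TSA groups. Their summed level was 25641 and 20580.4 FPKM under PE, 11676 and 5469.7 under PE+TSA and 10488 and 5668 under PE+TSA+shJIP1. By median they were lower than PE also in PE+TSA replicate 1 (-0.72, against -0.04 for the members), and lowest in PE+TSA+shJIP1 replicate 2 (-2.17). In bulk RNA, fewer cells of a type and less RNA per cell cannot be told apart.

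Macrophage markers, of a cell type that responds strongly to interferon, were low but in part detected. Of 13 listed, 10 had a row under the listed symbol, and 5 of these averaged at least 1 FPKM. The summed level of the 10 was 18.1 and 24.0 FPKM under PE, 11.5 and 13.6 under PE+TSA and 11.6 and 9.62 under PE+TSA+shJIP1. Emr1, an older symbol of the listed Adgre1, also had a row and was not counted among them. It was at 2.62 and 2.31 FPKM under PE, 1.25 and 0.358 under PE+TSA and 1.79 and 1.43 under PE+TSA+shJIP1. The 5 tested rows had a median log2(FPKM + 1) of 2.17 and 2.28 under PE and 1.55 and 1.28 under PE+TSA. Under PE+TSA+shJIP1 it was 1.79 and 1.07. Of the 10 rows, the complement gene C1qa was listed at 0 in 5 of the 6 libraries and Itgam in 3. By more than 1 on the log2 scale, 2 of the 5 were higher in PE+TSA replicate 1 (3.76% of all features). In replicate 2, 1 was higher by that much (3.98%). Under PE+TSA+shJIP1, 4 of the 5 were higher in replicate 1, where 5243 of 10359 features were. The part of such cells in the result was not tested. Endothelial markers, with 11 of 12 in the table, summed to 59.4 and 70.7 FPKM under PE, 43.6 and 79.3 under PE+TSA and 31.0 and 43.1 under PE+TSA+shJIP1. Fibroblast markers, with all 10 in the table, summed to 1058 and 1714, then 545 and 759, then 578 and 698. Both lists were higher in PE+TSA replicate 2 than in replicate 1, the reverse of the members. Smooth muscle and pericyte markers, with all 8 in the table, summed to 1670.2 and 1358, then 411 and 267, then 520.1 and 501. Of 11 lymphocyte markers only Cd4 and Cd8a had a row, and neither exceeded 2.3 FPKM.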

How the data were processed

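RNA of 6 NRVM libraries was sequenced, 2 in each of 3 groups, with RNA from a column kit and an Illumina library kit as preparation, per the labels' protocols. FPKM values for 13843 rows stand in the table that the authors deposited. Its header names no unit. Cufflinks and the genome build rn6 are named, with no version or role, per the submitters' processing notes, while aligner, annotation, filters and strand were not given in the sources used here.

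Features averaging 1 FPKM or more across libraries (10359) were kept and put on the log2(FPKM + 1) scale. In R 4.3.3, limma 3.58.1 estimated the 3 group means from all 6 libraries together, its variance prior being a trend on the level (3 residual and 3.27 prior degrees of freedom), two-sided, with Benjamini-Hochberg adjustment and a threshold of 0.05. The fit was tested on simulated data. Relative depth came from the most frequent ratio of low values to those of PE replicate 1, which 21 to 48 features held. Absolute depth is unknown, so no counting intervals are given. Promoters were read from RefSeq tables of GRCr8, a build other than that of the values.

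The members, roles and other lists were chosen with earlier results of these data known. Log2 change, SE and adjusted p are given, in 1 or more comparisons, for the member with the highest mean FPKM in each role and the 2 with the smallest p in each comparison. From other pathway lists, rows past the threshold and at most 4 with the widest replicate difference in PE+TSA are named, apart from 1 row that is not reported here. Dhx58, Irf1, Ifnb1, Ifnar1 and Jak1, and the exceptions to a count, were named beyond this rule after their values were seen. Alternatives were a pseudocount of 0.1, no filter, a filter of 5 FPKM, trimmed-mean scaling, quantile normalization, only the 2 groups compared, a replicate block, and leaving out each library in turn.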

Additional observations from a re-analysis of the deposited data

How the results depend on the processing

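With 2 libraries a group and 1 of them 20.8 times shallower, small changes could seldom be detected and larger ones could be missed. In the simulated data, the TSA comparison found 3.2% of log2 changes of 1, 45% of 2, 71% of 3 and 81.8% of 4. The simulated spread of a feature was the same in every library, and the changes were planted in features drawn at random. These rates therefore do not model the shallow library and need not hold for the members. The count of members past the threshold stayed at 0 for TSA and the hairpin in every alternative except 1 for TSA without PE replicate 1. For both treatments it was 1 (Gbp5) as reported and 0 with no filter, with only the 2 groups compared, and without each of 5 libraries. Without PE replicate 1 it was also 1, but this was the second listing of Ifit3. Over all features, the counts of 84 for TSA, 30 for the hairpin and 857 for both were 14 and 1 with no filter (TSA and hairpin), and 5, 8 and 4 with only the 2 groups compared. Leaving out libraries gave 6 to 203 for TSA, 7 to 16 for the hairpin and 4 to 941 for both. The median change of the members moved between -2.39 and -0.04 (TSA), -0.95 and 1.17 (hairpin) and -1.29 and -0.61 (both) when single libraries were left out, and with other scalings between -1.38 and -1.37, 0.14 and 0.21, and -1.05 and -0.97. The median replicate difference in PE, 0.12 as reported, changed sign, to -0.00033 under trimmed-mean scaling and -0.084 under quantile normalization. Trimmed-mean scaling moved the median of all features with TSA from 0.10 to 0.01. The direction of single members also turned when 1 library was left out, and none of these changes passed the threshold. With TSA the range was -2.35 to 0.17 for Ddx58 and -0.52 to 0.28 for Bst2. With the hairpin it was -1.16 to 1.36 for Ddx58, -2.19 to 0.79 for Sp100, -0.63 to 0.18 for Bst2, -1.20 to 2.99 for Isg15, -1.19 to 1.59 for Irgm, -0.58 to 0.28 for Ifi27 and -1.12 to 1.80 for Oas1a. With both it was -1.02 to 1.96 for Sp100 and -0.57 to 0.073 for the first listing of Ifit3.

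The labels give the groups the same replicate numbers without saying what they share. With a replicate block 28, 18 and 1063 features passed in the 3 comparisons, no member passed with TSA or the hairpin, and Gbp5 passed with both (adjusted p = 0.0226). Across all features, replicate differences correlated with Pearson's r = 0.07 (PE and PE+TSA), 0.04 (PE and PE+TSA+shJIP1) and 0.12 (PE+TSA and PE+TSA+shJIP1). Spearman's rho for the last pair of groups was 0.29. Across the 34 members, r was -0.29, 0.12 and 0.61 in the same order.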

Other observations

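Features with symbols outside the members and all lists were split by the letters of their promoters. Of these, 174 tested features had the ISRE core (GAAA, any 2 bases, GAAA) in the 250 bases before the annotated start and 8020 had not. Emr1, an older symbol of the listed macrophage marker Adgre1, was among the 174. In PE+TSA, replicate 1 exceeded replicate 2 by more than 1 on the log2 scale in 7 of the 174 (4.02%) and in 2.77% of the 8020, and the median difference was 0.00 in both. The opposite difference was seen in 5.17% and 3.68%. Among the 7, Ogfr, the opioid growth factor receptor, was at 21.1 and 25.5 FPKM under PE, 27.8 and 8.46 under PE+TSA and 18.4 and 18.3 under PE+TSA+shJIP1. Tmem140 was at 1.84 and 0.196, then 4.51 and listed at 1.05e-12, then 0.608 and 1.21. The low value in PE+TSA replicate 2 that marks most members was not seen for most of these 174 features. The listed interferon-stimulated and antigen processing genes, with the core in 13 of 40 and 7 of 33 promoters, had been set aside beforehand. The split therefore cannot tell whether the letters go with the low value. The features of this split were chosen after the member values were seen.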
